A study of Mus musculus with 4 samples.

Results

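The mineralocorticoid and glucocorticoid axis of sodium absorption was followed through 10 genes, named as a list and matched to the deposited tables by gene identifier. All 10 were found among the 18872 genes listed in at least 1 of the 4 libraries, and all 10 passed the filter on low counts. They are the receptors Nr3c2 and Nr3c1, the enzyme Hsd11b2, the kinase Sgk1, the ubiquitin ligase Nedd4l, the channel subunits Scnn1a, Scnn1b and Scnn1g, and the steroid-induced regulators Tsc22d3 and Fkbp5. Their identifiers in the files (Entrez) are 110784, 14815, 15484, 20393, 83814, 20276, 20277, 20278, 14605 and 14229, in that order.

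RNA was sequenced from the epithelium of mouse colon, isolated after the animals had received 2% DSS for 3 days. DSS, or dextran sulfate sodium, is a sulfated polysaccharide given to mice to damage the colonic epithelium and cause colitis. The knockout group is labelled EZH2-IEC-/-, a deletion of Ezh2 in intestinal epithelial cells, and gave 2 libraries. The wild-type group gave 2 libraries and received the same DSS. Each value below is therefore a difference between genotypes under DSS, and mice without DSS were not analysed here. Ezh2 encodes the histone methyltransferase of the Polycomb repressive complex PRC2. The driver of the deletion and the age of the mice are not given in the sources used here, nor is it stated that replicate libraries represent different mice. The p-values thus rest on variation among 4 libraries, part or all of which could be technical.

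Aldosterone enters the cell and binds the mineralocorticoid receptor, the product of Nr3c2. Corticosterone binds the same receptor, and the enzyme made from Hsd11b2 inactivates it in sodium-absorbing epithelia. The activated receptor raises Sgk1, whose kinase phosphorylates the ligase made from Nedd4l and so keeps it from removing the epithelial sodium channel from the cell surface. The channel consists of an alpha, a beta and a gamma subunit, made from Scnn1a, Scnn1b and Scnn1g. It absorbs sodium at the surface of the distal colon, where, in rats, aldosterone induces mainly the beta and gamma subunits.

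A promoter of Sgk1 holds the full steroid receptor motif and is shown with 1 promoter each of 2 other steroid-induced members. These are Tsc22d3, which was lower in knockout, and Fkbp5, which was higher. Each line gives bases upstream of an annotated start, 5′ to 3′ on the gene's strand, in lower case with matches to the hexamer AGAACA, or its reverse complement TGTTCT, in capitals. In the Sgk1 line, the 15-base run of capitals is a match to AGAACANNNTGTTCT, the palindrome of the glucocorticoid response element, which both receptors bind and which holds the hexamer on either strand.
Sgk1: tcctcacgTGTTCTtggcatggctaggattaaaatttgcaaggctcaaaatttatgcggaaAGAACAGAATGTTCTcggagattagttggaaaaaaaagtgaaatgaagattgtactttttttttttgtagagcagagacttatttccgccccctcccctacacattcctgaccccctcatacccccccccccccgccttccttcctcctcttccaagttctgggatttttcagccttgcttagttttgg
Tsc22d3: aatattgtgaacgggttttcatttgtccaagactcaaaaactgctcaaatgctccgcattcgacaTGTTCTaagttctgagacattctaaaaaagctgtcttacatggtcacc
Fkbp5: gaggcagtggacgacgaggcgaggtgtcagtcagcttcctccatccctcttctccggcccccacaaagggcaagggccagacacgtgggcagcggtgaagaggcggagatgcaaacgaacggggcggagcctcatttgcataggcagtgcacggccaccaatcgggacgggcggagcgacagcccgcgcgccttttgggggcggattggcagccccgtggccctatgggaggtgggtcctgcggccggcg

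The sequences are RefSeq promoters of build GRCm38.p6, at chr10:21993640-21993889 on the plus strand for Sgk1, chrX:140600660-140600772 on the minus strand for Tsc22d3 and chr17:28486150-28486399 on the minus strand for Fkbp5. The Tsc22d3 line leaves out bases that lie in an annotated exon. The palindrome in Sgk1 begins 189 bases upstream of 1 of the gene's 6 annotated starts. Of 32851 promoter windows of 250 bases in the mouse table, 3 hold the palindrome on either strand, 0.00913% of all, and 16.1% hold at least 1 hexamer. Member windows on 1 chromosome were left out of the search, although the shares over all windows include that chromosome. The search covered 13 windows of 6 members, of which 4 hold a hexamer, 3 of the 6 of Sgk1 and 1 of the 3 of Tsc22d3. The Sgk1 and Tsc22d3 windows printed were picked because they hold a match, whereas Fkbp5 had only 1 window. The 3 lines are therefore no comparison of lower with higher genes. The windows of Scnn1b, Scnn1g, Nr3c2 and Fkbp5 hold neither set of letters. Scnn1a, Hsd11b2, Nr3c1 and Nedd4l had no window in the search, which the left-out chromosome need not explain for each of them. These are matches of letters, not measured binding sites, and the files count each gene as a whole, so no count can be assigned to a start.

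Of the 10 genes, 8 were lower in the knockout libraries, 1 was higher and 1 did not pass the test. Sgk1 fell to 16.4% of its wild-type FPKM, Scnn1b to 23.4%, Hsd11b2 to 26.1% and Scnn1g to 31.2%, and Fkbp5 was the gene that rose. The order of these falls depends on the uneven knockout libraries of Scnn1b. Without knockout replicate 2 its log2 fold change was -2.56, against -2.54 for Sgk1, and without knockout replicate 1 it was -1.57, against -1.73 for Hsd11b2 and -1.68 for Scnn1g. A gene was called by edgeR's quasi-likelihood test at an adjusted p under 0.05, with Benjamini-Hochberg adjustment over all 13608 genes tested. Across those genes 43.7% were called, 20.8% lower and 23.0% higher. The share of members called lower was above this background. The members were chosen with earlier results of these data known, so that share is no test of the set. FPKM, read counts scaled to transcript length and library size, did not overlap between the groups for any of the 10 members, as for 73.0% of all tested genes. The median log2 fold change, knockout minus wild type, was -1.13 over the 10 genes and -0.002 over all genes tested. Fold changes below are on this log2 scale with their standard error, and FPKM summaries are given as mean ± SD (n = 2 in each group).

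**Figure D1:**
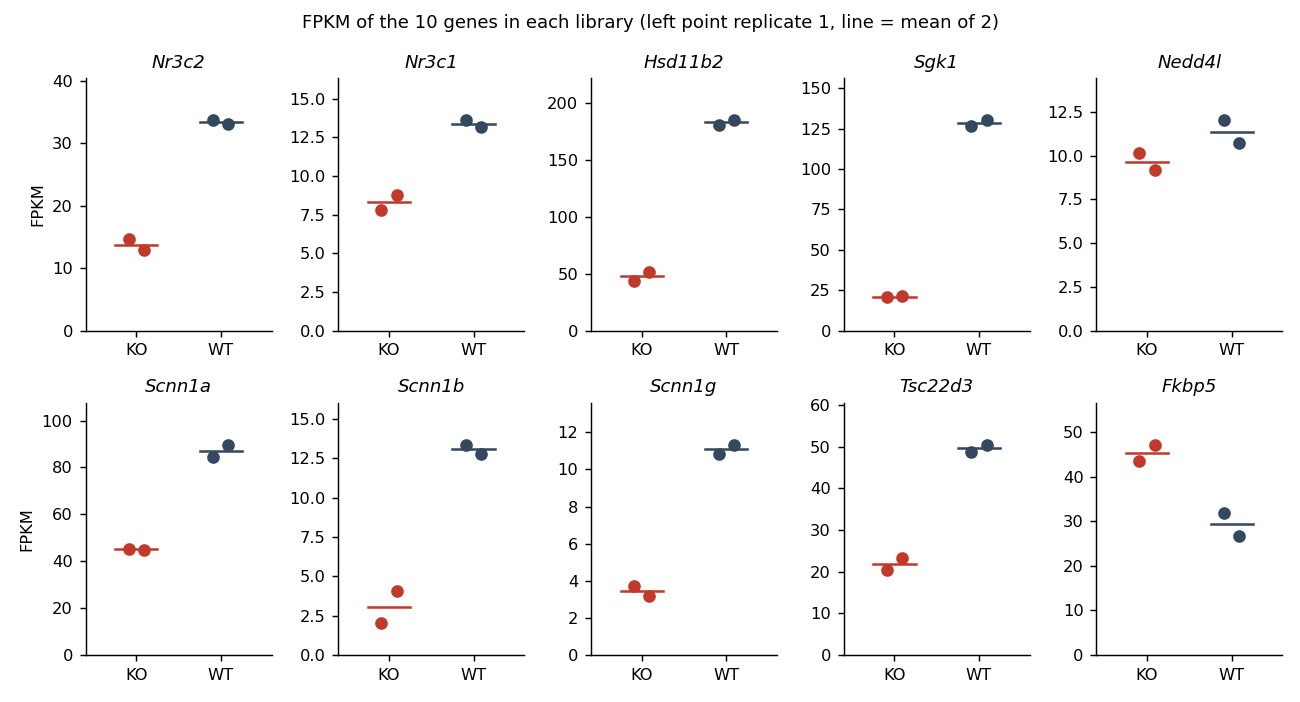
FPKM (y axis, from 0, a scale per gene) of the 10 genes in the 2 knockout and the 2 wild-type libraries, with points for libraries and a line for the group mean. The knockout points lie below the wild-type points for 9 genes and above them for Fkbp5.

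Both receptors were lower in knockout. Nr3c2, the mineralocorticoid receptor, had 14.6 and 12.9 FPKM in the knockout libraries, against 33.7 and 33.2 FPKM in the wild-type libraries. The wild-type libraries lay close together and well above both knockout libraries. The log2 fold change was -1.18 ± 0.10 (edgeR adjusted p = 2.97e-05). Nr3c1, the glucocorticoid receptor, had 7.83 and 8.75 FPKM in knockout, against 13.6 and 13.2 FPKM in wild type, a log2 fold change of -0.59 ± 0.10 (edgeR adjusted p = 0.00142). Its estimated counts, 271.7 and 306.4 in knockout and 439.9 and 442.5 in wild type, were not whole, so some reads were assigned by estimation. The mineralocorticoid receptor fell by more than the glucocorticoid receptor, and the ratio of Nr3c2 to Nr3c1 FPKM within a library was 1.87 and 1.47 in knockout, against 2.47 and 2.52 in wild type. The ratios of the groups did not overlap, but with 2 libraries against 2 an exact two-sided permutation test cannot give a p below 0.333, so this ratio and those below are given as values without a test.

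Hsd11b2, whose enzyme shields the mineralocorticoid receptor from corticosterone, had 43.7 and 51.6 FPKM in the knockout libraries, against 181 and 184 FPKM in the wild-type libraries. This was the most abundant of the 10 transcripts in wild type, at 183 ± 2.53 FPKM, above 97.8% of all listed genes. It averaged 47.7 ± 5.61 FPKM in knockout, or 26.1% of the wild-type mean, and its log2 fold change was -1.84 ± 0.10 (edgeR adjusted p = 2.4e-06). Relative to the receptor it shields it also fell, with 2.99 and 4.01 FPKM of Hsd11b2 per FPKM of Nr3c2 in knockout and 5.38 and 5.56 in wild type. Hsd11b1, which encodes the enzyme that works in the opposite direction and regenerates corticosterone, rose. Its FPKM was 7.67 and 5.59 in knockout and 3.1 and 1.68 in wild type (log2 fold change 1.57 ± 0.35, edgeR adjusted p = 0.00643). The ratio of Hsd11b1 to Hsd11b2 was 0.176 and 0.108 in the knockout libraries, against 0.0171 and 0.00911 in the wild-type libraries, so Hsd11b2 stayed the more abundant transcript in every library.

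Sgk1, the kinase that links the receptor to the channel, was counted at 275 and 294 in the knockout libraries, against 1582 and 1690 in the wild-type libraries. Its FPKM was 20.5 and 21.7 in knockout and 127 and 130 in wild type. The libraries of each group were nearly equal, and the groups were far apart. The log2 fold change of -2.50 ± 0.09 (edgeR adjusted p = 2.65e-07) was lower than that of all but 0.904% of tested genes. Nedd4l, the ligase on which the kinase acts, had 10.1 and 9.16 FPKM in knockout, against 12.0 and 10.7 FPKM in wild type. The groups did not overlap, but the gap between them was smaller than the difference between the libraries of either group, and the gene did not pass (log2 fold change -0.13 ± 0.10, 95% interval -0.37 to 0.10, edgeR adjusted p = 0.33). Its estimated counts were not whole. The ratio of Sgk1 to Nedd4l FPKM was 2.02 and 2.37 in the knockout libraries and 10.5 and 12.1 in the wild-type libraries.

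The 3 subunits of the channel were all lower in knockout, the beta and gamma subunits by more than the alpha subunit. Scnn1a, the alpha subunit, had 45.2 and 44.9 FPKM in knockout, against 84.5 and 89.6 FPKM in wild type (log2 fold change -0.85 ± 0.08, edgeR adjusted p = 7.16e-05). Scnn1b, the beta subunit, had 2.05 and 4.08 FPKM in knockout, against 13.4 and 12.8 FPKM in wild type (log2 fold change -1.98 ± 0.26, edgeR adjusted p = 0.00032). It was the least even of the members within a group, counted at 30 and 61 in the knockout libraries and at 183 and 182 in the wild-type libraries. With either knockout library left out the fall remained past the threshold, at -1.57 without knockout replicate 1 and -2.56 without knockout replicate 2. Scnn1g, the gamma subunit, had 3.72 and 3.2 FPKM in knockout, against 10.9 and 11.3 FPKM in wild type (log2 fold change -1.58 ± 0.16, edgeR adjusted p = 8.53e-05). Its deposited length was 2965 bases in both replicate 1 files and 3016 bases in both replicate 2 files, which enters its FPKM but not its counts.

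The alpha transcript was the most abundant of the 3 in every library. Per FPKM of Scnn1a, Scnn1b was 0.0453 and 0.0909 in the knockout libraries, against 0.158 and 0.143 in the wild-type libraries. For Scnn1g the same ratio was 0.0822 and 0.0713 in knockout, against 0.128 and 0.126 in wild type. Both ratios were lower in each knockout library than in either wild-type library. The ratio of Scnn1g to Scnn1b, 1.81 and 0.784 in knockout and 0.812 and 0.887 in wild type, overlapped between the groups, so the beta and gamma transcripts were not told apart by it. The 95% intervals of their log2 fold changes, -2.56 to -1.40 for Scnn1b and -1.94 to -1.21 for Scnn1g, overlapped too, whereas that of Scnn1a, -1.04 to -0.66, lay outside both. The difference between subunits itself was not tested across genes.

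**Figure D2:**
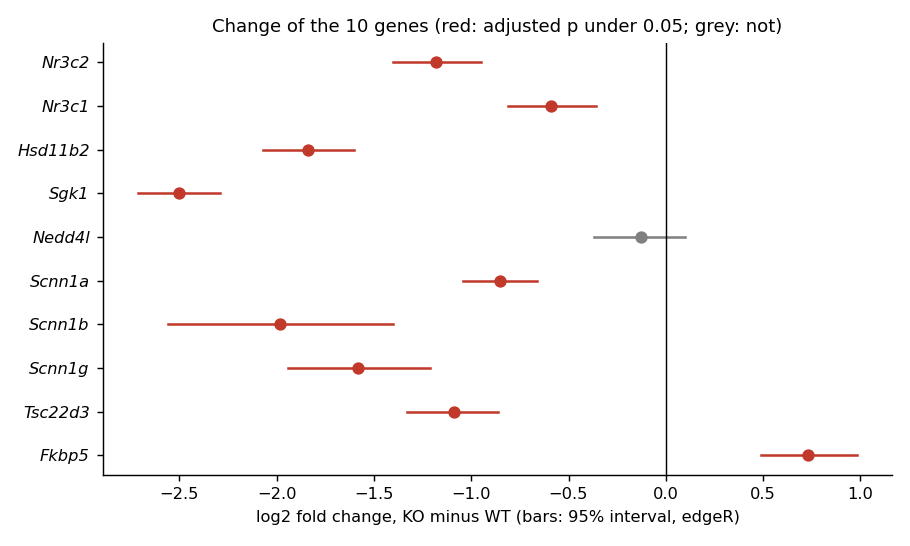
Log2 fold change, knockout minus wild type (x axis), of each of the 10 genes, with 95% intervals from edgeR as bars, red where the adjusted p was under 0.05. The interval of Sgk1 runs from -2.71 to -2.29, that of Nedd4l includes 0, and that of Fkbp5 lies above 0.

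The 2 steroid-induced regulators moved in opposite directions. Tsc22d3, which encodes the glucocorticoid-induced leucine zipper protein and is also an aldosterone target in the kidney, had 20.3 and 23.2 FPKM in knockout, against 48.7 and 50.5 FPKM in wild type (log2 fold change -1.09 ± 0.10, edgeR adjusted p = 5.41e-05). Fkbp5, a co-chaperone that lowers hormone binding by the glucocorticoid receptor and is itself induced by it, had 43.6 and 47.2 FPKM in knockout, against 31.9 and 26.8 FPKM in wild type (log2 fold change 0.73 ± 0.11, edgeR adjusted p = 0.000689). Fkbp5 was the more abundant of the pair in each knockout library and Tsc22d3 in each wild-type library, with Tsc22d3 to Fkbp5 ratios of 0.465 and 0.491 in knockout and 1.53 and 1.88 in wild type.

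The order of the 10 transcripts differed between the groups. In knockout, Hsd11b2 at 47.7 ± 5.61, Fkbp5 at 45.4 ± 2.54 and Scnn1a at 45.1 ± 0.247 FPKM stood at the top within each other's range, then Tsc22d3 at 21.8 ± 2.05 and Sgk1 at 21.1 ± 0.841 FPKM, which overlapped. Nr3c2, Nedd4l and Nr3c1 followed at 13.8 ± 1.22, 9.65 ± 0.693 and 8.29 ± 0.651 FPKM, and Scnn1g and Scnn1b, at 3.46 ± 0.368 and 3.06 ± 1.44 FPKM, could not be ordered. In wild type the order was Hsd11b2, Sgk1 at 128 ± 2.46, Scnn1a at 87.1 ± 3.61, Tsc22d3 at 49.6 ± 1.22, Nr3c2 at 33.4 ± 0.354 and Fkbp5 at 29.3 ± 3.59 FPKM. Nr3c1 at 13.4 ± 0.318 and Scnn1b at 13.1 ± 0.417 FPKM overlapped there, as did Nedd4l at 11.4 ± 0.926 and Scnn1g at 11.1 ± 0.339 FPKM. Sgk1 was thus close to the level of Tsc22d3 in knockout and above Scnn1a in wild type.

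**Figure D3:**
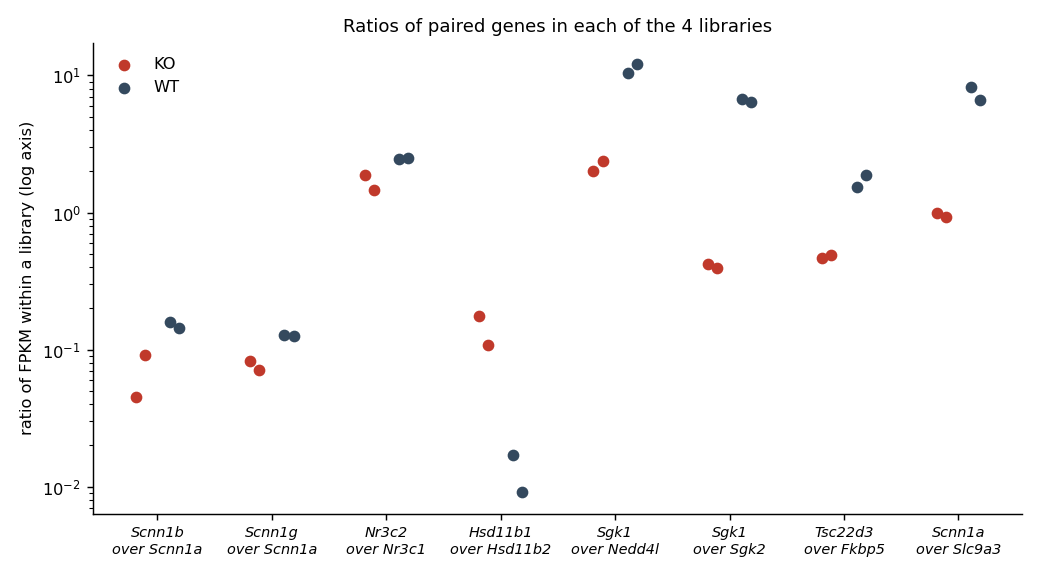
Ratio of the FPKM of paired genes within each library (y axis, log scale), knockout points left of wild-type points. The ratio of Sgk1 to Sgk2 is 0.421 and 0.397 in knockout and 6.75 and 6.45 in wild type. The groups do not overlap for any of the 8 ratios drawn. The ratios were chosen after their values were seen, so this count is no test. The ratio of Scnn1g to Scnn1b, for which they overlap, is not drawn.

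Fitted over the 4 libraries, the 5 genes whose centred log2 CPM, counts scaled to library size, lay closest to those of Sgk1 included Syne2, Ank, Slc15a1 and Naaladl1, at Euclidean distances of 0.0405, 0.074, 0.0809 and 0.102. Their log2 fold changes were between -2.59 and -2.50. With 2 groups of 2 libraries this measure of likeness is set mostly by the size of the difference between groups.

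Tested were 8 genes for proteases that can cleave the channel and for inhibitors of such proteases. Of these, 3 were higher, all proteases, 2 were lower, both inhibitors, and 3 did not pass (median log2 fold change 0.09). Over all tested genes 43.7% were called. The membrane proteases Tmprss2, Tmprss4 and St14 rose, with 380 and 355 FPKM of Tmprss2 in knockout against 267 and 263 FPKM in wild type, and log2 fold changes of 0.57 ± 0.07, 0.54 ± 0.08 and 0.43 ± 0.09 for the 3 genes (edgeR adjusted p = 0.000303, 0.000873 and 0.00462). The Kunitz-type inhibitors fell, Spint2 to 708 and 788 FPKM in knockout against 1176 and 1274 FPKM in wild type (log2 fold change -0.61 ± 0.08, edgeR adjusted p = 0.000379), and Spint1 by 0.41 on the log2 scale (edgeR adjusted p = 0.0034). Prss8, which encodes the channel-activating protease prostasin, had 25.2 and 24.5 FPKM in knockout and 25.8 and 26.2 FPKM in wild type and did not pass. Neither did the protease gene Furin or the inhibitor gene Serpine2, with log2 fold changes of 0.14 and -0.61 (edgeR adjusted p = 0.366 and 0.189).

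Genes for kinases, ubiquitin enzymes and their partners, not all of which act on the channel itself, moved in both directions. Of 19 tested, 4 rose, 4 fell and 11 did not pass (median 0.04), a share of calls near the 43.7% over all genes. Sgk2, a relative of Sgk1, rose to 48.6 and 54.6 FPKM in knockout, against 18.8 and 20.2 FPKM in wild type (log2 fold change 1.50 ± 0.10, edgeR adjusted p = 8.1e-06). The ratio of Sgk1 to Sgk2 was therefore 0.421 and 0.397 in the knockout libraries and 6.75 and 6.45 in the wild-type libraries. Usp2, a deubiquitinase induced by aldosterone in the kidney, fell by 0.75 on the log2 scale and Nedd4, the relative of Nedd4l, by 0.41 (edgeR adjusted p = 0.000731 and 0.0024). Stk39, a kinase of the WNK pathway, Ube2l3, a ubiquitin-conjugating enzyme, and Ywhae, a phosphoprotein-binding adaptor, had log2 fold changes of 0.56, 0.47 and 0.56, all past the threshold, and the related Ywhab did not pass (0.05).

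The sodium pump completes sodium absorption at the basolateral side. Atp1b1, its beta subunit, had 712 and 691 FPKM in knockout and 733 and 695 FPKM in wild type, with overlapping groups, and did not pass (log2 fold change 0.08 ± 0.06, edgeR adjusted p = 0.363). Fxyd4, a regulator of the pump that corticosteroids induce in the rat colon, fell to 24.6 and 34.1 FPKM in knockout, against 149 and 140 FPKM in wild type (log2 fold change -2.19 ± 0.15, edgeR adjusted p = 8.97e-06). Of the 14 pump genes and basolateral or potassium partners tested, 4 rose and 5 fell (median 0.05). The share called over all tested genes was 43.7%. The potassium channel genes Kcnk5, Kcnq1 and Kcne3 fell by 1.81, 0.88 and 0.85 on the log2 scale, and Kcnk6 rose by 1.51. Atp12a, the colonic proton-potassium pump, rose by 0.63.

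Electroneutral absorption is the other route of sodium and chloride uptake in the colon. Its list also holds a chloride channel, a bicarbonate cotransporter and guanylate cyclase-activating peptides. Of the 13 genes tested, 2 were higher and 7 lower (median -0.43), so these counts are not of electroneutral uptake alone. Among all tested genes 23.0% were higher and 20.8% lower. The apical sodium-proton exchanger Slc9a3 rose to 45.7 and 48.7 FPKM in knockout, against 10.3 and 13.6 FPKM in wild type (log2 fold change 2.08 ± 0.13, edgeR adjusted p = 4.98e-06), so Scnn1a and Slc9a3 were at nearly equal FPKM in knockout, with ratios of 0.99 and 0.922, against 8.18 and 6.59 in wild type. A second exchanger, Slc9a2, fell by 1.23 on the log2 scale. The chloride-bicarbonate exchanger Slc26a3, the carbonic anhydrase Car2, the chloride channel Cftr, the peptide Guca2a and the bicarbonate cotransporter Slc4a4 fell by 1.49, 1.39, 1.29, 1.16 and 3.23, all past the threshold. Guca2b, the other guanylate cyclase-activating peptide gene of the list, rose to 35.3 and 36.6 FPKM in knockout, against 15.9 and 16.6 FPKM in wild type (log2 fold change 1.25, edgeR adjusted p = 0.000641).

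Genes known as corticosteroid receptor targets moved in both directions. Of 19 tested, 8 rose and 6 fell (median 0.14), where 23.0% of all tested genes rose and 20.8% fell. Per1, a clock gene induced by both receptors, had 8.68 and 8.21 FPKM in knockout, against 20.9 and 21.2 FPKM in wild type (log2 fold change -1.22 ± 0.10, edgeR adjusted p = 1.79e-05). Edn1, the endothelin precursor that aldosterone induces in the collecting duct, had 0.71 and 1.54 FPKM in knockout, against 18.8 and 21.9 FPKM in wild type (log2 fold change -4.08 ± 0.24). The other 4 that fell were Zbtb16, Klf9, Ndrg2 and Errfi1, with log2 fold changes of -1.19, -0.97, -0.45 and -0.38. The 8 that rose were Lcn2, Mt2, Hif3a, Cebpd, Anxa1, Cdkn1a, Zfp36 and Dusp1, with log2 fold changes of 4.10, 1.92, 1.51, 1.13, 1.12, 0.72, 0.68 and 0.53.

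Among 16 receptor chaperones and coregulators, 8 rose and 3 fell (median 0.06), against 23.0% and 20.8% of all tested genes. Hsp90aa1, the chaperone that holds the steroid receptors in their binding form, rose by 0.65 on the log2 scale, with its partners Stip1, Ppid and Ptges3 at 0.69, 0.68 and 0.56 (edgeR adjusted p = 0.000278, 0.000746, 0.00375 and 0.0013). The abundant Hspa8 and Hsp90ab1 rose by 0.27 each. The coactivators Ep300 and Ncoa2 fell by 0.64 and 0.59, and for Ncoa2 the transcripts listed differ between the files.

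Most genes listed for local corticosteroid synthesis and interconversion were at the edge of detection, though H6pd and Nr5a2 were above it. Of the 11 genes, 6 were tested, of which 2 rose and 4 fell (median -1.62). The share called over all tested genes was 43.7%. Both that rose are of interconversion, so these counts and the median are not of synthesis alone. The genes that rose were Hsd11b1, described above, and H6pd, which supplies its cofactor, with 18.1 and 16.3 FPKM in knockout against 6.11 and 5.16 FPKM in wild type (log2 fold change 1.72 ± 0.12, edgeR adjusted p = 8.53e-06). Nr5a2, a nuclear receptor that drives intestinal steroid synthesis, fell by 1.29 on the log2 scale. Star, Cyp21a1 and Hsd3b2 stayed at or below 0.46 FPKM in each knockout library and at or below 3.06 FPKM in each wild-type library, and their falls rest on few counts. Cyp11a1, Cyp11b1, Cyp11b2, Hsd3b1 and Nr5a1 had 0 to 4 counts in each library and were not tested.

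**Figure D4:**
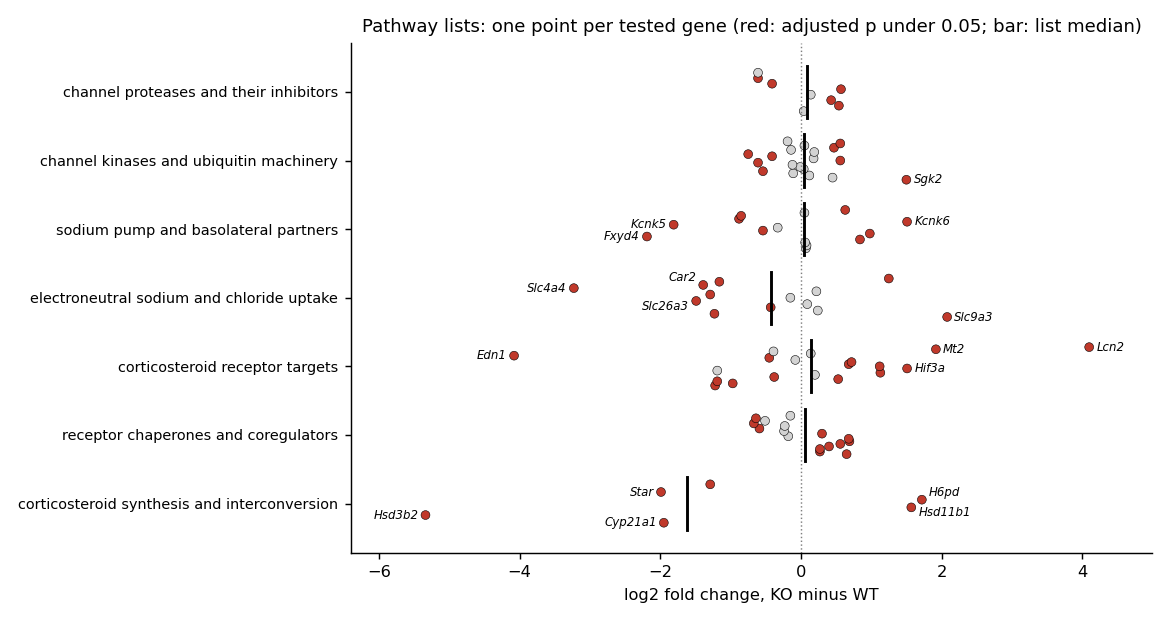
Log2 fold change, knockout minus wild type (x axis), of each tested gene of 7 further lists of the pathway, red where the adjusted p was under 0.05, with the list median as a black bar. Genes with a change beyond 1.3 are named, and list medians lie between -1.62 and 0.14.

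Markers of position and of other cells differed between the groups beside these results. For the counts that follow, 23.0% of all tested genes were called higher and 20.8% lower. Posterior Hox genes, which mark the distal colon where the channel is expressed, were lower. Of 6 tested 5 fell, their summed FPKM was 246 and 272 in knockout against 551 and 570 in wild type, and the most abundant, Hoxb13 and Hoxd13, fell by 1.08 and 0.70 on the log2 scale. Colon epithelium markers were high in every library, with a summed FPKM of 10129 and 10560 in knockout and 9868 and 10165 in wild type over 12 genes, of which 6 rose and 5 fell. Their defining members Krt8, Krt20 and Vil1 rose by 0.30, 1.25 and 0.58, Cdh1 and Epcam fell by 0.60 and 0.27, and the abundant Krt19 rose by 0.29. Leukocyte markers, of which 13 of 16 rose and 2 fell, summed to 478 and 506 FPKM in knockout and 260 and 284 FPKM in wild type, with Lyz2 and S100a8 the most abundant. Stromal and endothelial markers, of which 12 of 14 fell and 0 rose, summed to 1073 and 1374 FPKM in knockout and 2377 and 2556 FPKM in wild type. The smooth muscle genes Tagln and Acta2 were the most abundant of these, with 405 and 541 FPKM of Tagln in knockout and 948 and 1109 FPKM in wild type. No defining marker of leukocytes, stroma or endothelium (Ptprc, Cd3e, Cd79a, Csf1r, Col1a1, Col1a2, Pecam1 or Cdh5) was at 0 in any library. The part of position, leukocytes and stroma in the changes of the 10 genes was not tested. In bulk RNA, fewer cells of a type and less RNA per cell cannot be told apart.

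Summed over genes, estimated counts came to 5399949 and 5446998 in the knockout libraries and to 5037367 and 5236519 in the wild-type libraries. Ezh2 itself had 86 and 83 counts in knockout and 105 and 102 in wild type (log2 fold change -0.27 ± 0.17, edgeR adjusted p = 0.217). Gene-level counts cannot reveal the loss of a single exon, so this value is no check of the genotype labels.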

How the data were processed

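For each library the authors deposited gene-level values: transcripts, length, expected count and FPKM. Per the file headers, expected counts are estimated counts and FPKM is normalized for transcript length and sequencing depth by the authors. Per the submitters' processing notes, the tools include Bowtie2 and BWA (roles and versions unstated) and the build was hg19, a human one, although the samples are mouse. Of the gene identifiers, 99.72% matched the mouse RefSeq table, which gave the symbols. The sources used here do not give the quantifier. All 10 members have the same transcripts in the 4 files.

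A gene missing from a file counted as 0. Expected counts, rounded, entered the quasi-likelihood test of edgeR 4.0.16 (R 4.3.3; filterByExpr, TMM factors, two-sided, without a block), with Benjamini-Hochberg adjustment over all genes. The common dispersion was 0.0166. Standard errors are the absolute log2 fold change over the square root of F. Libraries of a group differed beyond sampling noise (chi-square per degree of freedom 2.95 in knockout and 2.18 in wild type, over genes with whole counts and 1 transcript list in all files) and were kept separate. Tests were checked on simulated data. DESeq2 1.42.0 on counts, and limma 3.58.1 on log2(FPKM + 1) and log2(FPKM + 0.1), served as alternatives. The members and the lists were chosen with earlier results of these data known. From each further list, up to 6 called genes by p and the 2 most abundant are named, and from marker lists the 2 most abundant and the defining ones. Prss8, Furin, Serpine2, Guca2b, the receptor targets beyond this rule, the 5 untested synthesis genes and the gene ratios were chosen after their values were seen. Prac1, in the list of position markers, was not matched. Values of 2 genes that the naming rule selects are not reported here.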

Additional observations from a re-analysis of the deposited data

How the results depend on the processing

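Under 14 alternatives each of the 10 genes kept its direction and its side of the threshold. The log2 fold change ranged from -2.60 to -2.47 for Sgk1, from -2.56 to -1.57 for Scnn1b, from -1.95 to -1.73 for Hsd11b2, from -0.95 to -0.81 for Scnn1a, from -0.69 to -0.52 for Nr3c1 and from 0.61 to 0.85 for Fkbp5. For Nedd4l it ranged from -0.23 to -0.06, with adjusted p between 0.0973 and 0.789. The median over all genes was -0.103 with library totals alone in edgeR, against -0.002 with TMM factors, and higher genes made up 42.4% of calls there, against 52.5%. With a library left out, 2442 to 3053 genes were called higher and 2133 to 2711 lower, against 3126 and 2824. The labels tie the replicate numbers to no animal or batch. Deviations of same-numbered libraries correlated at 0.254 over 12991 genes, and with the replicate block 3855 genes were called higher and 3548 lower, with the same calls for the 10 genes. Counts were low for Scnn1b, with 30 and 61 in knockout, and for Scnn1g, with 60 and 53, which limits their precision.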
